A study of Mus musculus with 31 samples.

Results

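The genes described are 38 cell cycle and DNA replication genes, chosen by symbol from a count table of 15648 genes. They fall into 15 genes of S phase, 22 genes of mitosis and the transcription factor gene Foxm1, and all 38 had a row. The mice were adult OT-I/Rag-/- animals, which carry a transgenic T cell receptor for an ovalbumin (OVA) peptide and, lacking Rag1, make no other T cells and no B cells. A recombinant adeno-associated virus (rAAV) was injected into the dorsal CA1 region of the hippocampus on both sides, and the left hippocampus was taken 2, 5, 8 or 28 d later for RNA-seq. The rAAV-OVA mice received rAAV-hSyn-OVA-mCherry, in which the synapsin promoter drives OVA and the fluorescent protein mCherry in neurons, and the rAAV-control mice received rAAV-hSyn-mCherry, so every mouse of both arms carried the transgenic receptor, the injection and mCherry. There were 4 rAAV-OVA mice at each time, and 4, 4, 3 and 4 rAAV-control mice at 2, 5, 8 and 28 d, 31 in all, with 1 library per mouse. The comparison asked whether genes of S phase and mitosis differed between the vectors at each time, and how they followed Cd8a, which encodes the alpha chain of the CD8 receptor of cytotoxic T cells.

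A cell that enters S phase loads the MCM2-7 helicase at its origins, activates it with Cdc45, and copies its DNA with polymerases held by the sliding clamp PCNA, while ribonucleotide reductase, thymidylate synthase and thymidine kinase supply the nucleotides. Before mitosis the cyclin partners of Cdk1 accumulate, and kinesins, spindle proteins and checkpoint kinases then separate the chromosomes. Both sets of genes are known to be kept silent in resting cells and to be switched on in waves, the first by E2F factors and the second by the MuvB complex with B-Myb and FoxM1. In the adult hippocampus few cells divide in the absence of injury, mostly neural progenitors and oligodendrocyte precursors, while activated T cells and reactive microglia divide readily.

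Each library held between 19046977 and 57407902 estimated counts, with a median of 27024978. Levels are given as CPM (counts scaled by TMM to 1e+06 per library), and a log2FC comes from an edgeR fit over all 8 groups with 2 surrogate variables. A gene was called when its FDR over all genes was at most 0.05 and its absolute log2FC at least 0.66. Of the mice, 23 carried the batch label 1 and 8 the batch label 2, the latter as 2 mice of each arm at 2 d and at 28 d. The neuronal markers were high in every mouse, with a summed level of 4050 to 13800 CPM over 8 genes. There were 2 mice that stood apart from their groups in Cd8a. The rAAV-control mouse D720 at 8 d had 9.73 CPM of Cd8a against 0.517 and 1.09 in the other rAAV-control mice of that day. The rAAV-OVA mouse D844 at 28 d had 6.28 CPM, against 79.1 to 171 in the other rAAV-OVA mice of that day. Over all genes, the rAAV-OVA mouse D684 at 2 d also lay far from mates, with up to 205 in chi-square per degree of freedom between the counts of a pair. At 28 d the pairs of D844 had 111 to 295, the highest with D845. The pairs of D845 with D667 and D661 had 186 and 89.5. Pairs within the other groups had at most 103. D845 had the lowest neuronal sum (4050 CPM against 6720 to 8950 in its group) and the highest endothelial sum (368 against 209 to 238). The log2FC of single genes at 8 and 28 d are those with D720 and D844, and their shift without these mice is given after the counts of calls.

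A few start regions are shown because the S phase members and the mitosis members each moved together in what follows, and both classes are known for elements close to the start. RefSeq start regions of build GRCm38.p6, each 300 bases from 250 before to 50 after the start, were found for 32 of the 38 members, as 35 windows. Each line gives the 200 bases before the start, 5′ to 3′ on the strand of the gene, for a pair of helicase genes and for 3 mitosis genes. Capitals mark the E2F elements (TTTGGCGC, TTTCCCGC, TTTCGCGC or TTTGCCGC), the cell cycle homology region or CHR (TTTGAA or TTTAAA) and the CCAAT box (CCAAT), on either strand. TTTAAA reads alike on both strands, and E2F elements on opposite strands can overlap.
Mcm5, chr8:75109309-75109508, plus strand: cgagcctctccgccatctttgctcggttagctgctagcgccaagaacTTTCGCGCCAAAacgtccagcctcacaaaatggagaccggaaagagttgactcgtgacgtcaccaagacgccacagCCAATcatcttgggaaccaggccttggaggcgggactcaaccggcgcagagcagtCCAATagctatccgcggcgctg
Mcm6, chr1:128359706-128359905, minus strand: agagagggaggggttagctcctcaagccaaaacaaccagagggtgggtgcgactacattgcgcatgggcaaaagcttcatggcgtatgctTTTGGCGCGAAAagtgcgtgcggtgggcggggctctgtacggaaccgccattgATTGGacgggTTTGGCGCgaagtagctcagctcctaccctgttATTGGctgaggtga
Cdk1, chr10:69352913-69353112, minus strand: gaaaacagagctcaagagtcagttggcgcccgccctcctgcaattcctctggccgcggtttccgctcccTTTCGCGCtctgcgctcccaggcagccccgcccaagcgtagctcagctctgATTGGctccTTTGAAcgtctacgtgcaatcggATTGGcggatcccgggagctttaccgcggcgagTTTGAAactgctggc
Ccnb1, chr13:100786487-100786686, minus strand: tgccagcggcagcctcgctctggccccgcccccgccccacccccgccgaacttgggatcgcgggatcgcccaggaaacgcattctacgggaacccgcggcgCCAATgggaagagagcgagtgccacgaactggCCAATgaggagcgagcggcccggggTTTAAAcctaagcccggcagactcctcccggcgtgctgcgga
Plk1, chr7:122159235-122159434, plus strand: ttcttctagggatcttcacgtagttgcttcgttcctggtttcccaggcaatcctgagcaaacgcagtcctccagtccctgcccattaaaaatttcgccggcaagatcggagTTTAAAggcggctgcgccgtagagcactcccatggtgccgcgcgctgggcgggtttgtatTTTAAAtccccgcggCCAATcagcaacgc
Within the 200 bases shown, the Mcm5 and Mcm6 stretches hold E2F elements beside CCAAT boxes and no CHR. The whole 300-base window of Mcm5 does hold 1 CHR, upstream of the stretch shown, while that of Mcm6 holds 0. Mcm5 is thus among the S phase windows counted with a CHR below. The Ccnb1 and Plk1 stretches hold CHR elements beside CCAAT boxes and no E2F element, and the Cdk1 stretch holds all 3.

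Over the whole windows, an E2F element was found in 7 of 16 S phase windows (43.8%) and in 1 of 19 mitosis windows (5.26%), against 2.26% of all 32851 start regions of the same length. A CHR was found in 17 of the 19 mitosis windows (89.5%) and in 6 of the 16 S phase windows (37.5%), against 27.6% of all start regions. The CCAAT box stood in 89.5% of mitosis windows and in 75% of S phase windows, against 37.4% of all. A CHR and a CCAAT box stood together in 16 mitosis windows (84.2%) and in 5 S phase windows (31.2%), against 10.7% of all. These are matches of letters, not measured binding sites, and the windows were not matched for base composition. Prc1 has overlapping windows in the mitosis set, each with 1 CHR and 1 CCAAT box, so the windows are not all separate. Aurkb, Tpx2, Kif20a, Ccna2, Mcm4 and Foxm1 are named only.

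**Figure D1:**
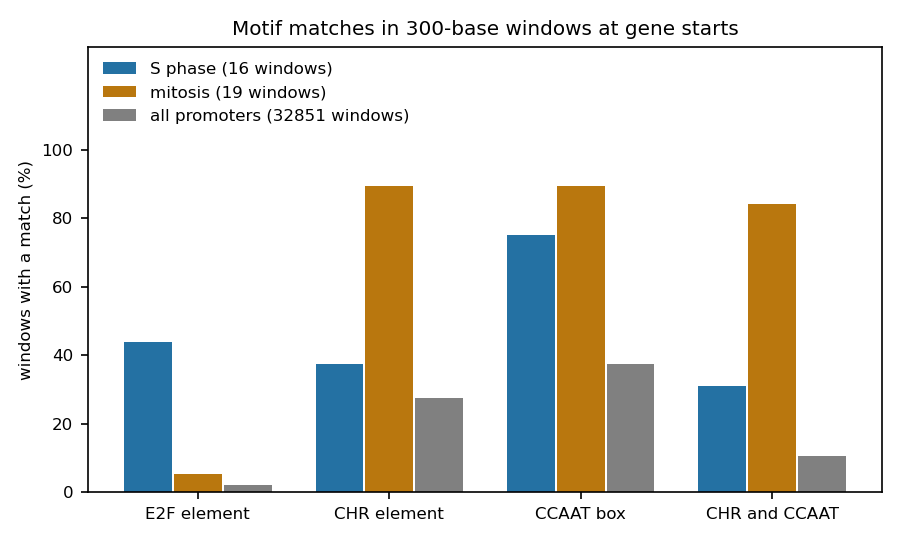
Share of 300-base start regions (y axis, percent) with at least 1 match to an E2F element, a CHR, a CCAAT box, or a CHR together with a CCAAT box, in 16 S phase windows, 19 mitosis windows and all 32851 start regions. E2F matches stood in 43.8% of S phase windows and 5.26% of mitosis windows, and CHR matches in 37.5% and 89.5%.

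From 5 d on, the cell cycle genes were higher in rAAV-OVA mice. At 5 d 37 of the 38 rose, 14 of 15 in S phase, 22 of 22 in mitosis and Foxm1, where 9.56% of all genes were called higher. At 8 d all 38 rose (9.36% of all genes), and at 28 d 37 rose (12.7% of all genes). None was called lower at 5, 8 or 28 d, where 4.67%, 0.588% and 4.86% of all genes were. The median log2FC of the 38 was 2.16 at 5 d, 2.55 at 8 d and 2.32 at 28 d, while the median over all genes was -0.01, -0.03 and 0.01. The mitosis genes had a median log2FC of 2.3, 2.74 and 2.57 at the 3 times, and the S phase genes 1.31, 1.9 and 1.52. Without covariates the medians were 2.95, 2.64 and 3.32 for mitosis and 1.78, 1.91 and 2.16 for S phase. The member that was not called at 5 and 28 d was Pcna, with log2FC of 0.56 and 0.64 that passed the FDR but not the limit on log2FC. At 8 d its log2FC of 0.67 lay just over that limit, and it was called in 15 of 31 fits that each left out 1 mouse and in 7 of 11 other alternatives.

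The arms were fully apart in most members. At 5 d the lowest rAAV-OVA mouse was above the highest rAAV-control mouse in all 38 members, where this held for 21% of all genes. At 8 d this held for 37 members (14.4% of all genes) and at 28 d for 33 (15% of all genes), 22 of 22 in mitosis, 10 of 15 in S phase and Foxm1. A fit without D720 and D844 was added after the values were seen. It called all 38 members higher at each of the 3 times, with median log2FC of 2.52, 3.25 and 2.97. In that fit 2696 of 15648 genes were called in either direction at 5 d and 3296 at 28 d, against 2226 and 2750 with both mice. These mice were picked for Cd8a levels unlike those of their arms, so that fit adds no separate support. Every member had a larger log2FC without them, by 0.13 to 2.36 at 8 d and by 0.22 to 1.14 at 28 d. At 8 d the largest shifts were those of Tk1, from 2.66 to 5.02, Aurkb, from 3.27 to 5.11, Ube2c, from 2.78 to 4.34, and Cdk1, from 2.67 to 4.03. Most of this came with D720, without which alone these genes had 4.69, 4.85, 4.07 and 3.76. Leaving out another rAAV-control mouse of that day, which gives D720 more weight, lowered them to 1.85 and 2.55 for Tk1 and Aurkb (without D696) and to 2.11 and 2.05 for Ube2c and Cdk1 (without D722). Tk1 was then not called, nor without D722 or D845, while the other three were called in every such fit. At 28 d Mki67 went from 3.79 to 4.64 without both mice, Tk1 from 3.57 to 4.71, Mcm5 from 1.84 to 2.46 and Pcna from 0.64 to 0.93. Without D845, 38 members were called at 28 d, with a median log2FC of 2.41. The filter in the table had asked for at least 15 counts in at least 15 mice, which a gene can meet through the rAAV-OVA mice alone. Only 24 of the 38 members had at least 15 counts in every mouse.

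**Figure D2:**
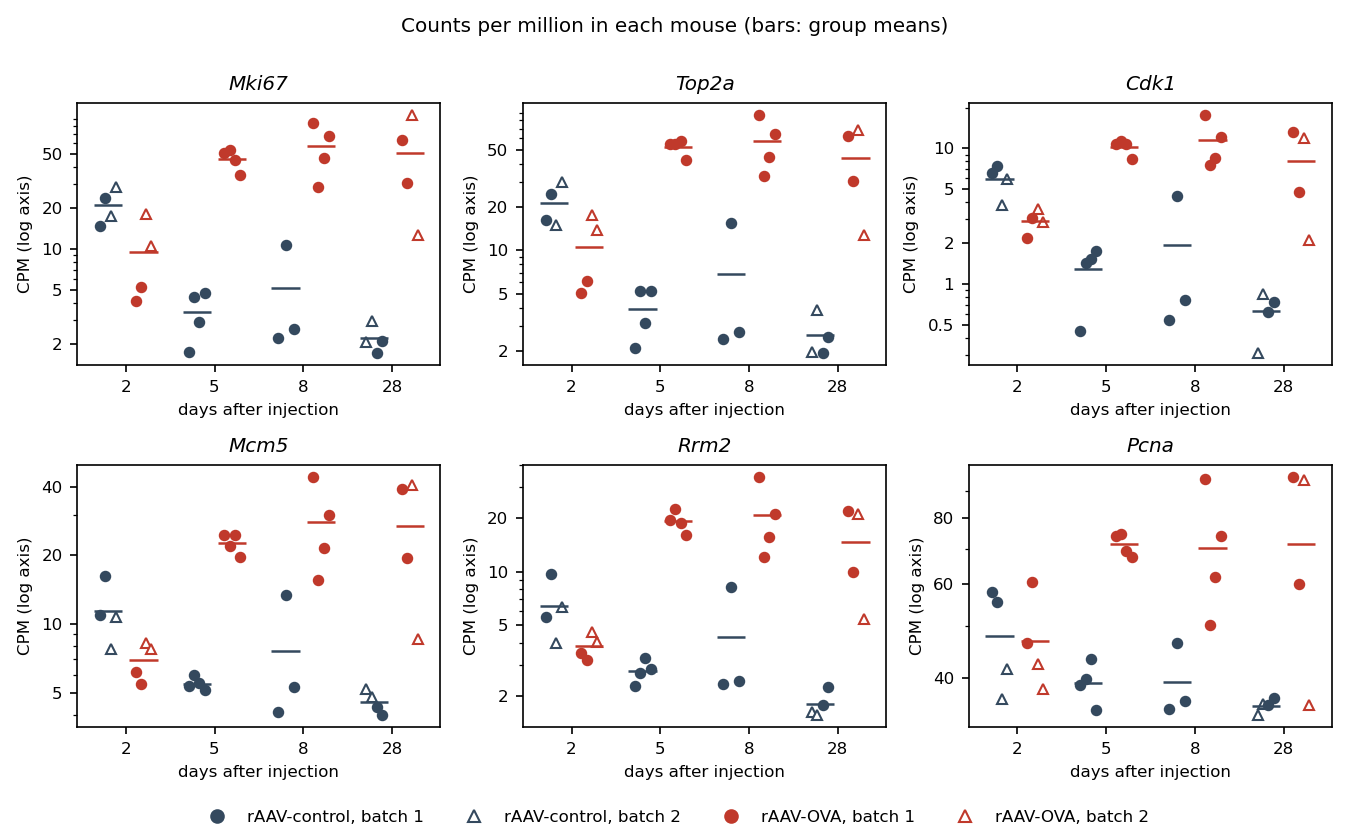
CPM of Mki67, Top2a, Cdk1, Mcm5, Rrm2 and Pcna (y axis, log scale) by day after injection (x axis), 1 point per mouse, dark for rAAV-control and red for rAAV-OVA, filled circles for batch 1 and open triangles for batch 2, bars for group means. From 5 d the rAAV-OVA points lie above the rAAV-control points of their day, except for Pcna in 1 rAAV-OVA mouse at 28 d. Among rAAV-control groups the means are highest at 2 d, and 1 rAAV-control mouse at 8 d and 1 rAAV-OVA mouse at 28 d stand apart.

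Mki67 (ENSMUSG00000031004) encodes the Ki-67 protein, which coats mitotic chromosomes and marks cycling cells. At 5 d the rAAV-control mice had 1.75, 4.42, 2.93 and 4.72 CPM and the rAAV-OVA mice 51.1, 53.4, 45.2 and 34.9. The arms were far apart, and Mki67 rose by a log2FC of 3.17 ± 0.51 (SE, FDR = 9.99e-05). At 8 d the rAAV-control mice had 2.21, 10.8 and 2.59 CPM, the middle value from D720, and the rAAV-OVA mice 84.1, 28.8, 46.9 and 68.5. The lowest rAAV-OVA mouse was still above D720, and the log2FC was 3.72 ± 0.55 (FDR = 0.000164). At 28 d the rAAV-control mice had 2.08, 2.97, 1.72 and 2.11 CPM, and the rAAV-OVA mice 63, 30.5, 97.5 and, in D844, 12.7. D844 was the lowest of its arm and above every rAAV-control mouse, and the log2FC was 3.79 ± 0.53 (FDR = 6.68e-05).

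Top2a encodes topoisomerase II alpha, which untangles replicated DNA, and Cdk1 the kinase that starts mitosis. Top2a had 2.1 to 5.24 CPM in the rAAV-control mice and 42.7 to 57.6 in the rAAV-OVA mice at 5 d (log2FC 3.12 ± 0.47), and its log2FC was 3.37 ± 0.5 at 8 d and 3.27 ± 0.49 at 28 d. Cdk1 had 0.447, 1.42, 1.52 and 1.74 CPM in the rAAV-control mice at 5 d and 10.7, 11.3, 10.7 and 8.29 in the rAAV-OVA mice. Its log2FC was 2.25 ± 0.47, 2.67 ± 0.5 and 2.83 ± 0.51 at 5, 8 and 28 d. The cyclins that pair with Cdk1 rose by similar amounts. Ccna2, Ccnb1 and Ccnb2 had log2FC of 2.45, 2.54 and 2.6 at 5 d, of 2.65, 2.84 and 3.08 at 8 d, and of 2.37, 2.34 and 2.62 at 28 d, with SE from 0.39 to 0.53.

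The kinases and checkpoint genes rose at all 3 times. Aurka and Aurkb encode the Aurora kinases of the centrosome and of the chromosomal passenger complex. Aurkb had log2FC of 2.67 ± 0.53, 3.27 ± 0.57 and 3.64 ± 0.6 at 5, 8 and 28 d, while Aurka had 1.5 ± 0.26, 1.81 ± 0.28 and 1.14 ± 0.27, the smallest log2FC among mitosis genes at each time. Birc5, survivin, the partner of Aurkb in that complex, had 2.18, 2.71 and 2.65. The spindle checkpoint genes Bub1 and Bub1b had log2FC of 2.86 and 1.8 at 5 d and of 3.06 and 1.76 at 28 d. Plk1, a kinase of mitotic entry and exit, had 2.47, 2.77 and 2.3. Cdc20 and Ube2c, the activator and the ubiquitin-conjugating enzyme of the anaphase-promoting complex, had log2FC of 2.12 and 2.74 at 5 d and of 2.52 and 3.11 at 28 d.

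Motor and spindle genes made up the rest of the mitosis set. The kinesin genes Kif11, Kif20a and Kif23, which act in spindle formation and cytokinesis, had log2FC of 2.28, 2.43 and 2.24 at 5 d, of 2.61, 2.92 and 2.88 at 8 d, and of 2.5, 2.97 and 2.91 at 28 d. Cenpe and Cenpf, a kinetochore motor and a kinetochore protein, had 1.85 ± 0.3 and 2.14 ± 0.29 at 5 d and 1.68 ± 0.31 and 1.59 ± 0.29 at 28 d. Cenpf had the smallest FDR of the 38 members at 5 d (1.89e-05) and at 8 d (8.77e-05). Tpx2, Prc1 and Nusap1, which bind spindle microtubules, had log2FC of 1.66, 1.84 and 2.32 at 5 d and of 1.87, 1.77 and 2.78 at 28 d. Foxm1, the factor that activates many of these genes, had 2.15, 2.27, 2.19 and 2.92 CPM in rAAV-control mice and 9.42, 12.1, 11.1 and 6.78 in rAAV-OVA mice at 5 d. The arms did not overlap, and Foxm1 rose by 1.6 ± 0.32, 2.31 ± 0.35 and 1.72 ± 0.34 (log2FC) at 5, 8 and 28 d.

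Among the S phase genes, the helicase subunits moved by unequal amounts. Mcm5 had 5.32, 5.96, 5.49 and 5.15 CPM in the rAAV-control mice at 5 d and 24.5, 21.9, 24.5 and 19.6 in the rAAV-OVA mice. At 28 d it had 3.98 to 5.2 CPM in rAAV-control mice, 39.1, 19.5 and 40.7 in 3 rAAV-OVA mice and 8.55 in D844. Its log2FC was 1.51 ± 0.29, 1.9 ± 0.31 and 1.84 ± 0.3 at 5, 8 and 28 d. Mcm3 had log2FC of 1.84, 2.25 and 2.21, Mcm2 1.31, 1.9 and 1.52, Mcm7 0.99, 1.51 and 1.48, and Mcm4 0.94, 1.23 and 1.15. Mcm6 had the smallest of the 6 at each of 5 and 28 d. It had 16.8 to 22.9 CPM in rAAV-control mice and 39.7 to 44 in rAAV-OVA mice at 5 d, and its log2FC of 0.68 ± 0.23 lay just over the limit. It was called there in 18 of 31 fits that each left out 1 mouse, with log2FC of 0.53 to 0.85.

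The factors that load and start the helicase also rose. Cdc6 and Cdt1, which load MCM2-7 onto origins, had log2FC of 1.86 ± 0.36 and 2.19 ± 0.46 at 5 d and of 2.01 ± 0.38 and 2.37 ± 0.48 at 28 d. Cdc45, part of the active helicase, had 1.06 ± 0.27 and 1.16 ± 0.28. In nucleotide supply, Rrm2, the regulated subunit of ribonucleotide reductase, had 2.28 to 3.26 CPM in rAAV-control mice and 16.2 to 22.6 in rAAV-OVA mice at 5 d, with a log2FC of 2.26 ± 0.34. Its partner Rrm1 had 17.6 to 20.9 and 37.4 to 44 CPM, with a log2FC of 0.81 ± 0.17. The difference between the subunits in response was not tested. Thymidine kinase, Tk1, had 0.268, 0.365, 0.594 and 0.628 CPM in rAAV-control mice and 5.43, 6.25, 5.77 and 4.92 in rAAV-OVA mice at 5 d. It had the highest log2FC of the S phase genes at 5 d (2.65 ± 0.67) and 28 d (3.57 ± 0.8), and the widest SE of the 38 members. At 8 d it was the member whose arms overlapped, with 3.27 CPM in D720 and 3.08 in the lowest rAAV-OVA mouse.

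Uhrf1, which brings the maintenance DNA methyltransferase to replicated DNA, had log2FC of 2.53 ± 0.44, 2.87 ± 0.47 and 2.76 ± 0.46 at 5, 8 and 28 d. Tyms, thymidylate synthase, had 1.18, 1.45 and 1.25. Pcna, the sliding clamp, moved least. It had 38.7, 39.8, 43.3 and 34.8 CPM in rAAV-control mice at 5 d and 73.9, 74.5, 69.1 and 67.5 in rAAV-OVA mice, so the arms did not overlap although the fitted log2FC was 0.56 ± 0.15 (FDR = 0.00804). At 28 d D844 had 35.6 CPM, inside the 34 to 36.6 of the rAAV-control mice, and the other rAAV-OVA mice 59.9 to 95.5. Without covariates Pcna had a log2FC of 0.86 at 5 d and 1.01 at 28 d and was called at both times.

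**Figure D3:**
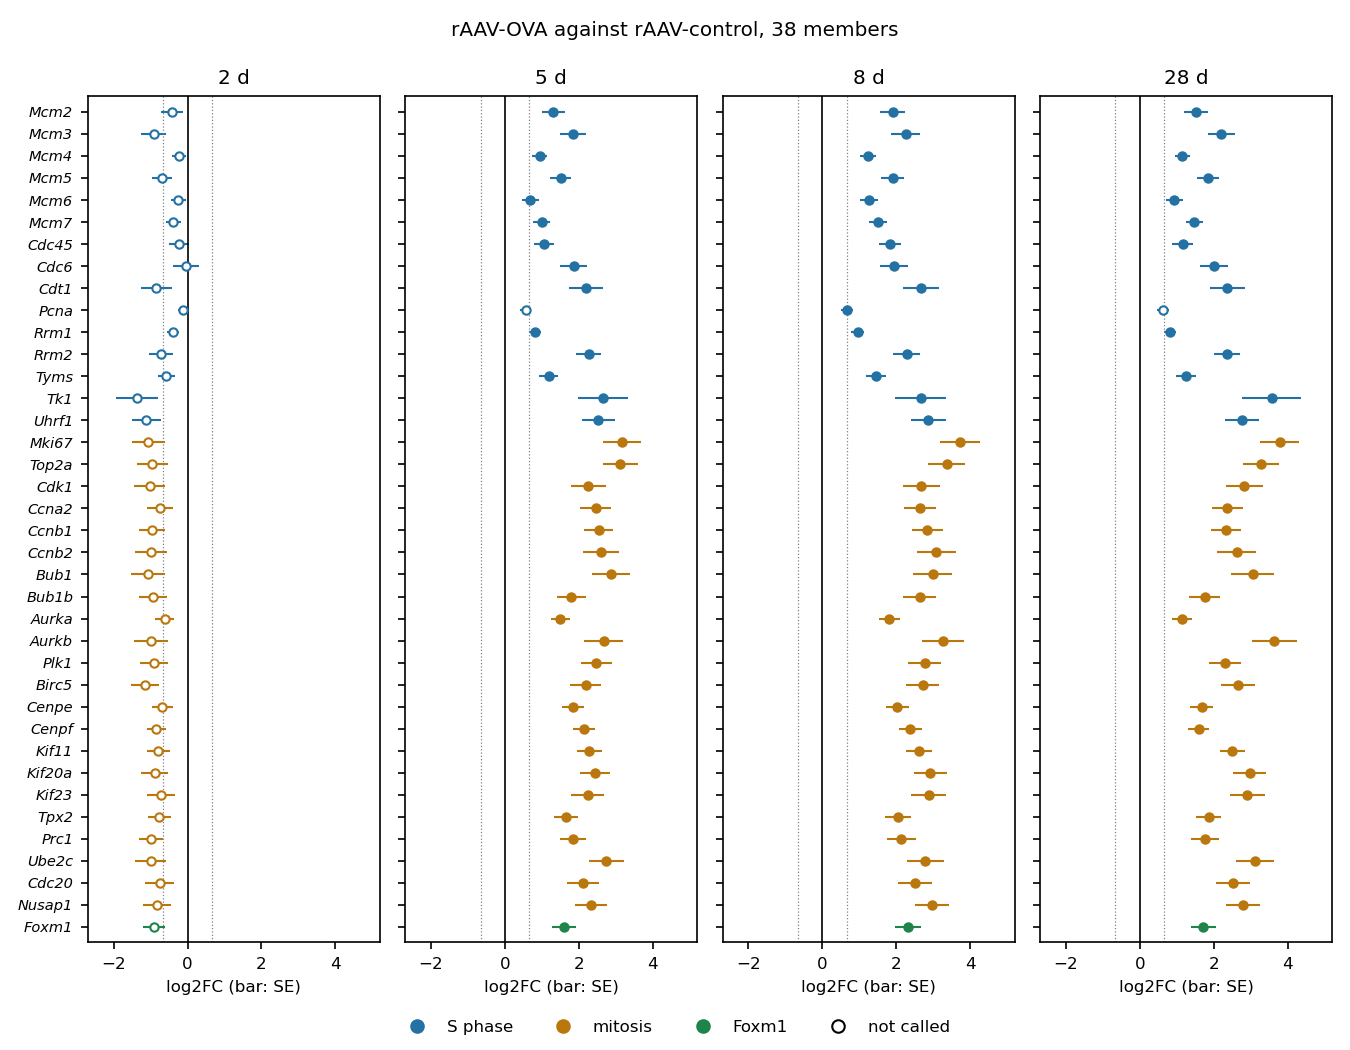
log2FC of rAAV-OVA against rAAV-control (x axis, points, with SE as bars) for each of the 38 members (y axis) at 2, 5, 8 and 28 d, filled where called, with dotted lines at the limits of -0.66 and 0.66. All 38 points lie below 0 at 2 d with none called, and all lie above 0 at 5, 8 and 28 d.

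At 2 d the order of the arms was the other way round, and no difference passed the test. All 38 members had a log2FC below 0, where 47.1% of all genes did, with a median of -0.92 in mitosis and -0.43 in S phase. With log2FC shrunk by ashr in DESeq2, these medians were -0.03 and -0.02. edgeR called 0 members and 0% of all genes, and the lowest FDR of a member was 0.35. DESeq2 and limma voom also called 0 members. At an unadjusted p under 0.05, 27 members were lower, 19 in mitosis, 7 in S phase and Foxm1, where 4.56% of all genes were lower. Every rAAV-OVA mouse lay below every rAAV-control mouse in 10 members, 9 of them in mitosis, where this held for 1.94% of all genes.

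Mki67 at 2 d had 14.8 and 23.8 CPM in the rAAV-control mice of batch 1 and 17.5 and 28.5 in those of batch 2. The rAAV-OVA mice had 4.13 and 5.3 in batch 1 and 18.2 and 10.6 in batch 2. The arms were apart in batch 1 and overlapped in batch 2, and the log2FC over both was -1.06 ± 0.44 (FDR = 0.481). Within batch 1 all 38 members were lower in the rAAV-OVA mice, with a median difference of -1.23 in log2 CPM, and both rAAV-OVA mice lay below both rAAV-control mice in 32 members (19% of all genes). Within batch 2 the mitosis members were lower in 22 of 22, with a median difference of -0.6, and both mice lay below both in 12 of them (17.6% of all genes). The S phase members of batch 2 were lower in 12 of 15, with a median difference of -0.18, and 2 were apart. Without D684 0 members were called over both batches, 37 were below 0 and the median log2FC was -0.72, and leaving out any 1 mouse gave medians of -1.24 to -0.62. Prc1, Birc5 and Cenpf had log2FC of -0.99 ± 0.33, -1.16 ± 0.38 and -0.84 ± 0.26, and Pcna and Cdc6 of -0.12 ± 0.14 and -0.04 ± 0.34.

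The response at 5 d was tested against that at 2 d as an interaction, a comparison added after the values were seen. All 38 members had a higher response at 5 d, where 9.98% of all genes did. The difference in log2FC had a median of 2.97, and ran from 0.68 for Pcna to 4.23 for Mki67. Both responses feed into this difference, and those at 2 d were below 0. Between 5 and 8 d, between 5 and 28 d, and between 8 and 28 d, edgeR called 0 of the 38 members, where 0.179%, 6.18% and 0% of all genes were called, and 0 members reached an unadjusted p under 0.05. DESeq2 and limma voom also called 0 members. These differences ran from 0.02 to 0.83 in log2FC between 5 and 8 d from -0.55 to 0.97 between 5 and 28 d and from -0.87 to 0.91 between 8 and 28 d, with SE of up to 1.12, so differences of that size could not be told from 0 with these mice. Between 5 and 8 d the direction also turned with the fit, from 38 members above 0 to 29 below 0 without covariates, and between 8 and 28 d from 27 below 0 to 4 below 0. No mice are shared between the days.

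At 28 d the batches could be read apart. In batch 1 all 38 members were higher in both rAAV-OVA mice than in both rAAV-control mice, with a median difference of 2.86 in log2 CPM, and this held for 30% of all genes. In batch 2, which holds D844, it held for 34 members, with a median difference of 2.32, and for 30.2% of all genes. A fit on batch 1 alone called all 38 higher, and called 2341 of 15648 genes in either direction. A fit on the 2 against 2 mice of batch 2 called 0 members, with a lowest FDR among them of 0.076, and 402 of all genes. At 8 d a fit on the 7 mice of that day without covariates called 0 members and 0 of all genes, with a lowest FDR among the members of 0.059. The median log2FC in that fit was 2.48, close to 2.55 in the fit of all groups. All mice at 5 and 8 d carried the same batch label.

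The rAAV-control mice themselves differed between 2 d and the later times. Mki67 had 14.8 to 28.5 CPM in them at 2 d, 1.75 to 4.72 at 5 d and 1.72 to 2.97 at 28 d. Between 2 and 28 d, a comparison added after the values were seen, 30 of the 38 members were called higher at 2 d, 22 of 22 in mitosis, 7 of 15 in S phase and Foxm1, where 2.82% of all genes were called higher. The median difference was a log2FC of 2.42 in mitosis and 0.77 in S phase. Tk1 had 1.81 to 6.45 CPM at 2 d and 0 to 0.308 at 28 d, and Cdk1 3.79 to 7.35 and 0.308 to 0.842, with a log2FC of 2.93 ± 0.49. Mcm6, Mcm4 and Pcna had log2FC of 0.08 ± 0.22, 0.14 ± 0.19 and 0.22 ± 0.15 and were not called. This comparison shares its 2 d mice with the treatment comparison at 2 d and its 28 d mice with that at 28 d. The mitosis count held at 20 with limma voom, 22 with the batch label as a covariate and 18 in batch 1 alone. Those fits called 241, 461 and 446 of 15648 genes in either direction, against 463 in the main fit. The S phase count did not, with 1 by limma voom, 3 with the batch label as a covariate, 3 in batch 1 alone and 1 without the rAAV-control mouse D743 at 2 d. Batch 2 alone called 0 of either set and 0 of all genes.

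In bulk tissue, more dividing cells and more of these transcripts per cell cannot be told apart, nor which cells carried them. Markers of several cell types moved with the cell cycle genes, and their part in the result was not tested. Of 10 T cell markers, 4 were in the table (Cd6, Cd8a, Lck and Il2rb), and all 4 rose at 5, 8 and 28 d, where 9.56%, 9.36% and 12.7% of all genes rose. Their summed level was 1.66 to 4.71 CPM in rAAV-control mice and 94.6 to 140 in rAAV-OVA mice at 5 d, 1.28 to 1.92 and 15.2 to 369 at 28 d, and 3.66 to 29.5 and 125 to 388 at 8 d. Of 8 monocyte markers, 7, 8 and 7 rose at 5, 8 and 28 d. Their summed level was 17.5 to 167 and 638 to 1310 CPM at 5 d, 27.5 to 254 and 465 to 1980 at 8 d, and 11 to 21.7 and 86.6 to 1680 at 28 d. Of 10 microglia markers, 3 rose and 1 fell at 5 d, 1 rose at 8 d, near the share of all genes, and 7 rose at 28 d, and their summed level was 572 to 878 and 1190 to 1220 CPM at 5 d, 469 to 1380 and 1090 to 1570 at 8 d, and 441 to 498 and 588 to 1660 at 28 d.

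Of 10 genes of neural progenitors and newborn neurons, 2 rose (Nes and Sox11) and 1 fell (Neurog2) at 5 d, 0 were called at 8 d and 2 rose at 28 d (Igfbpl1 and Hes5), where 9.56% of all genes rose and 4.67% fell at 5 d and 12.7% rose at 28 d. Their summed level was 91.3 to 103 CPM in rAAV-control mice and 102 to 155 in rAAV-OVA mice at 5 d. Of 8 neuronal markers, 2 fell at 5 d (4.67% of all genes fell), 0 were called at 8 d (0.588%) and 5 fell at 28 d (4.86%), with a summed level of 11200 to 13800 and 7030 to 8650 CPM at 5 d, of 11100 to 13700 and 7660 to 10300 at 8 d, where all 8 were below 0, and of 10700 to 12000 and 4050 to 8950 at 28 d. Of 8 oligodendrocyte precursor markers 0 were called at any time by edgeR, with a summed level of 324 to 437 and 272 to 355 CPM at 5 d. Of 8 endothelial markers 0 were called at 5 and 8 d by edgeR, and 3 rose at 28 d (Pecam1, Cldn5 and Cdh5; 12.7% of all genes rose), with all 8 above 0, a median log2FC of 0.64 and a summed level of 148 to 193 and 209 to 368 CPM. Of 8 astrocyte markers 1 fell at 5 d (Gja1, where 4.67% of all genes fell) and 1 rose at 28 d (Sox9, where 12.7% of all genes rose). Their summed level at 5 d was 6390 to 7270 CPM in rAAV-control mice and 4620 to 5330 in rAAV-OVA mice, with no overlap. At 2 d all 38 members had a log2FC below 0 and none passed the test. There the 4 T cell markers summed to 2.84 to 3.71 CPM in the rAAV-control mice and to 1.98 to 3.12 in the rAAV-OVA mice. Cd8a had 0.207 to 0.59 and 0 to 0.257 CPM. The monocyte markers summed to 159 to 964 and 74.5 to 155 CPM at 2 d, and the microglia markers to 704 to 863 and 637 to 736. Between the rAAV-control mice at 2 and 28 d, 5 of 8 monocyte markers, 2 of 10 microglia markers and 0 of 4 T cell markers were called higher at 2 d, where 2.82% of all genes were.

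Genes around the members were read from 4 lists. Of 16 genes of G1 and entry into S phase, 8, 8 and 7 rose at 5, 8 and 28 d (9.56%, 9.36% and 12.7% of all genes) and 0 fell. Among them E2f2, E2f7 and E2f8, E2F factors of which the last pair repress, had log2FC of 1.79, 1.9 and 2.08 at 5 d, Mybl2, which encodes B-Myb, 2.45, 2.78 and 1.68 at 5, 8 and 28 d, the pocket protein gene Rbl1 2.21, 2.21 and 1.72, and the cyclin D kinase gene Cdk6 1.16, 1.64 and 1.28. The D-type cyclins Ccnd1, Ccnd2 and Ccnd3 were not called at any time, with log2FC of 0.29, -0.22 and 0.55 at 5 d. Of 15 measured inhibitor and checkpoint genes, 3 rose and 1 fell at 5 d, where 9.56% of all genes rose and 4.67% fell, 5 rose at 8 d (9.36%) and 4 rose at 28 d (12.7%). The checkpoint kinase genes Chek1 and Chek2 rose at all 3 times, with log2FC of 1.44 and 0.86 at 5 d. At 5 d Cdkn1a, the gene of the inhibitor p21, rose by a log2FC of 1.66 ± 0.47 and Cdkn1c, that of p57, fell by 1.55 ± 0.5, and Cdkn1b, that of p27, had -0.09 ± 0.08. At 28 d the inhibitor gene Cdkn2c rose by 1.2 ± 0.28, and at 8 d E2f4, an E2F that represses, by 0.8 ± 0.14.

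Of 31 other measured replication genes, 14, 19 and 15 rose at 5, 8 and 28 d, where 9.56%, 9.36% and 12.7% of all genes rose, and 0 fell. Dbf4, the activator of the origin kinase, had log2FC of 2.03, 2.51 and 1.87, the polymerase alpha gene Pola1 1.17, 1.3 and 0.99, the polymerase epsilon subunit gene Pole2 2.01, 2.07 and 2, and the chromatin assembly gene Chaf1b 1.94, 2.37 and 2.66. Fen1, the flap endonuclease, was called at 8 d only, with log2FC of 0.61, 0.81 and 0.6 at the 3 times, and the difference between times did not pass the test. Gmnn, an inhibitor of Cdt1, and the clamp loader gene Rfc4 had 1.39 and 1.21 at 28 d. Of 41 other mitosis genes, 36, 38 and 36 rose, against the same shares of all genes, and 0 fell. Racgap1, Knl1 and Sgo1 had log2FC of 1.45, 3.27 and 2.79 at 5 d, Nek2, Kif15 and Smc4 of 2.08, 3.97 and 2.22 at 8 d, and Melk and Aspm of 3.51 and 2.81 at 28 d. In Nuf2, a kinetochore gene, the response differed between 5 and 28 d, with log2FC of 0.13 ± 0.19 and 1.18 ± 0.2 (FDR of the difference = 0.0135), and it was picked out after its values were seen.

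The relation to Cd8a was read among the 12 rAAV-OVA mice at 5, 8 and 28 d, where Cd8a had 32 to 46.2, 52 to 163 and 6.28 to 171 CPM. Within day, all 38 members rose with Cd8a in edgeR at an FDR of at most 0.05, where 19.4% of all genes had a positive slope at that limit. A slope of 1 would be proportional to Cd8a. The slopes, in log2 per log2 CPM of Cd8a, had a median of 0.46 in S phase and 0.5 in mitosis and ran from 0.25 ± 0.046 (SE) for Rrm1 to 0.69 ± 0.08 for Tk1. Mki67 had 0.59 ± 0.077, Mcm5 0.5 ± 0.056, Pcna 0.31 ± 0.036 and Foxm1 0.43 ± 0.064. The size of the slopes depended on D844. Without it all 38 were still positive at the limit (12.9% of all genes were), with a median of 0.82 in place of 0.48 and a range of 0.47 to 1.08. A fit of the 8 mice of 5 and 8 d alone was added after the values were seen. In it all 38 were positive at the limit (7.66% of all genes were), with a median of 0.72. The T cell markers other than Cd8a had slopes of 0.89 to 1.06 and the 8 monocyte markers of 0.58 to 1.22, and all of them passed. Of 10 microglia markers 7 had a positive slope at the limit, with a median over the 10 of 0.28, and of 10 progenitor and newborn neuron markers 1 had a positive and 3 a negative one. Of 8 neuronal markers 2 had a negative slope at the limit, where 13.5% of all genes did, and 0 of 8 oligodendrocyte precursor, 8 astrocyte and 8 endothelial markers passed in either direction.

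**Figure D4:**
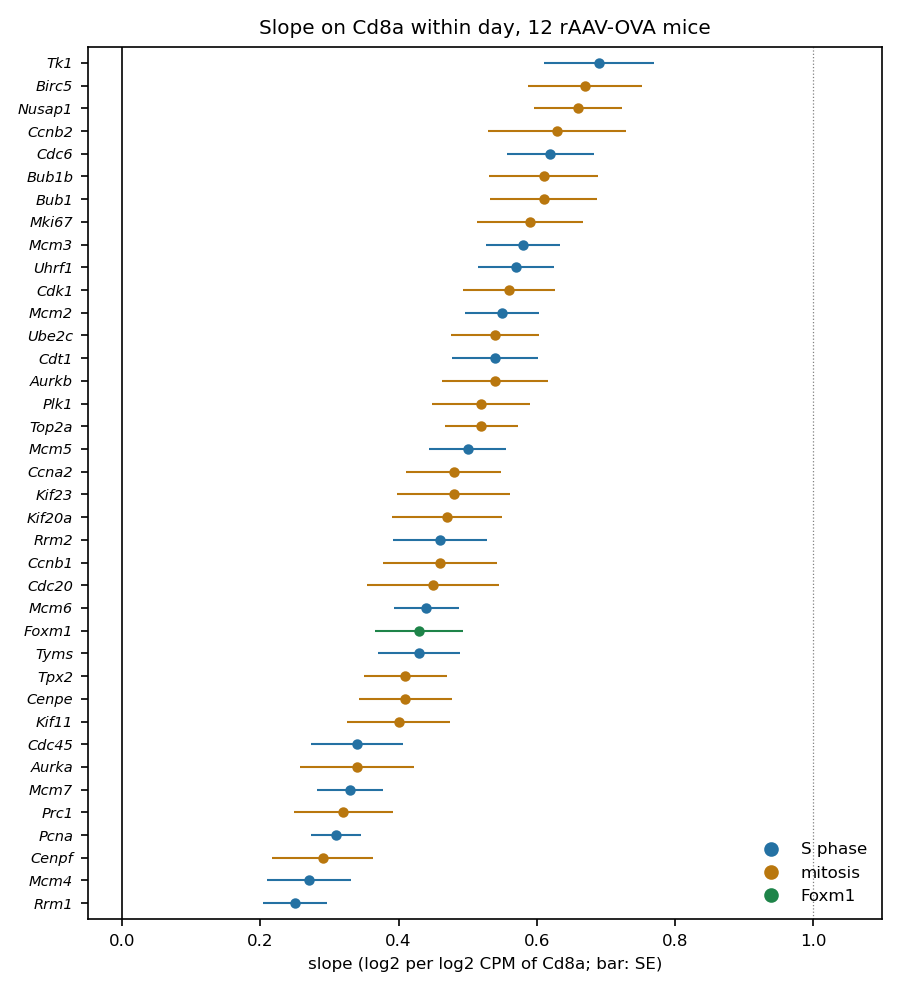
Slope of each of the 38 members on Cd8a (x axis, log2 per log2 CPM, points, with SE as bars) within day among 12 rAAV-OVA mice at 5, 8 and 28 d, ordered by slope, with solid and dotted lines at 0 and 1. Every slope lies between 0.25 (Rrm1) and 0.69 (Tk1).

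As correlations over the 12 mice, members had Pearson's r from 0.593 to 0.941 with log2 CPM of Cd8a, with a median of 0.811 where the median of all genes was 0.034. In a permutation test with 100000 random orders and FDR values over 15647 genes, 33 members passed with Pearson's r (11.3% of all genes did, with r above 0) and 3 with Spearman's rho (5.75%). For Mki67 r was 0.875 (permutation p = 0.00057, FDR = 0.00907) and rho 0.706 (permutation p = 0.0129, FDR = 0.0807). For Mcm5 r was 0.911 (permutation p = 0.00019, FDR = 0.00515) and rho 0.692 (permutation p = 0.015, FDR = 0.0882). Without the 2 mice farthest from the median of Cd8a, D844 and D845, all 38 r stayed above 0, at 0.224 to 0.878 with a median of 0.563 against 0.114 over all genes. Over those 10 mice only Mcm6 and Mcm7 passed (5.45% of all genes did), so most of the calls pooled over days did not hold without those mice. After removing day means, r ran from 0.785 to 0.975, and in an exact permutation test over all 13824 orders within days 37 members passed (14.5% of all genes did), all but Mcm4 (r = 0.808, exact p = 0.0197, FDR = 0.0831). Without D844 the r within day ran from 0.882 to 0.986, with a median of 0.953 against 0.127 over all genes.

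**Figure D5:**
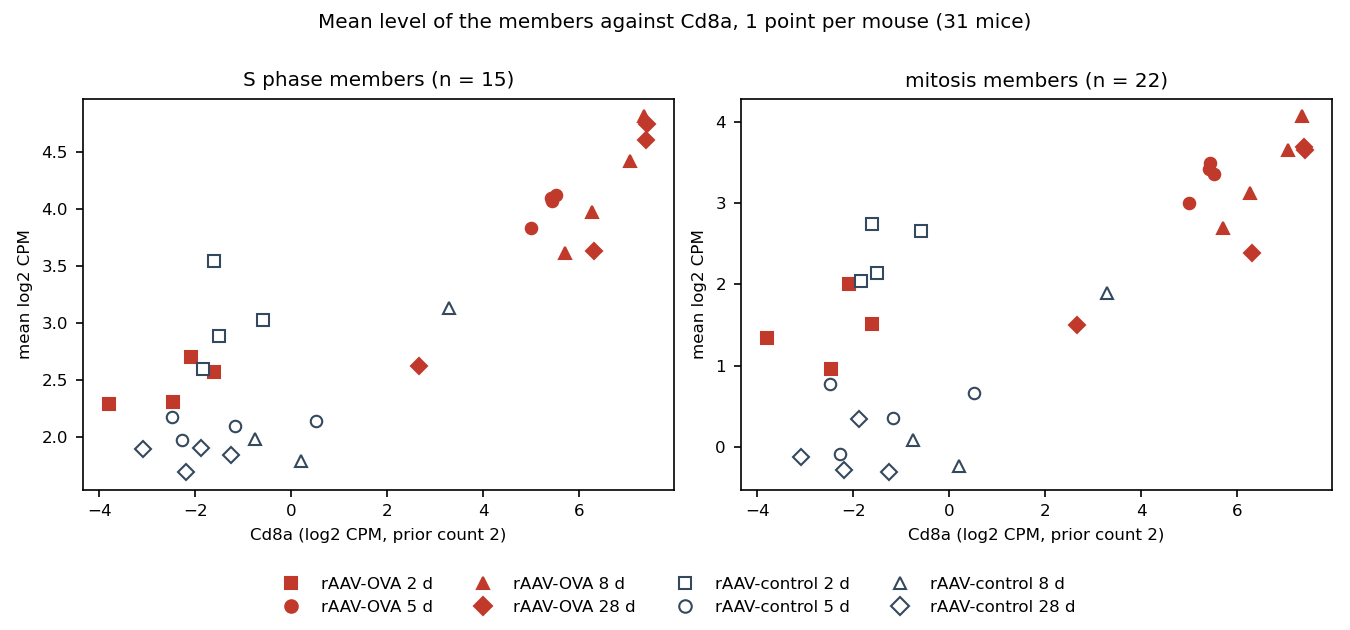
Mean log2 CPM of the 15 S phase members and of the 22 mitosis members (y axes) against log2 CPM of Cd8a (x axis), 1 point per mouse for 31 mice, red for rAAV-OVA and open dark for rAAV-control, with a shape for each day. The rAAV-control mice at 2 d (open squares) lie above the other rAAV-control mice at similar Cd8a, and D720 and D844 lie between the arms with mitosis means of 1.9 and 1.5.

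The rAAV-control mice at 2 and 28 d, both with little Cd8a, differed in the levels of the members. The rAAV-control mice at 2 d had mitosis means of 2.04 to 2.75 log2 CPM with 0.207 to 0.59 CPM of Cd8a, and those at 28 d had -0.31 to 0.34 with 0.0458 to 0.346 CPM. The rAAV-OVA mice at 28 d had mitosis means of 1.5 to 3.69 with 6.28 to 171 CPM of Cd8a. D720, the rAAV-control mouse at 8 d with 9.73 CPM of Cd8a, had a mitosis mean of 1.9 and an S phase mean of 3.13, against 1.5 and 2.62 in D844 with 6.28 CPM. No correlation is given over these mice, which form separate clusters. Among all other genes, those most like the mitosis mean over the 31 mice were Kif2c, Ect2, Pclaf, Cdca3, Dlgap5, Cdca8, Cep55 and Ckap2l, with r of 0.989 to 0.983. Those most like the S phase mean were Rinl, Lcp1, Fermt3, Tagln2, Arhgap30, Dbf4, Tnfrsf1b and Chaf1b, with r of 0.991 to 0.985. Of these 8, Dbf4 and Chaf1b stand on the replication list, while Lcp1 and Fermt3 encode leukocyte actin-bundling and integrin-binding proteins and Tnfrsf1b a TNF receptor. The r are over mice that share the groups of the study and describe likeness of pattern.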

How the data were processed

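Per the labels and the study's methods, the authors trimmed paired-end reads with fastp, estimated counts with Salmon 1.8.0 against GENCODE M29 transcripts, summed them to genes, and dropped genes that did not reach 15 counts in 15 or more of the 31 mice. The deposited values are estimated (expected) counts rounded to whole numbers, not normalized. Rounding and the filter bear most on low genes, and shared reads can be split among near-identical copies. A second deposited table held the same counts (0 cells differed).

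From these counts, edgeR 4.0.16 in R 4.3.3 fitted 8 groups and 2 surrogate variables (sva 3.50.0) with TMM scaling and quasi-likelihood tests. FDR values are Benjamini-Hochberg adjusted over all 15648 genes, and a call needed an FDR no higher than 0.05 together with a log2FC of 0.66 or more in size. CPM are per 1e+06 scaled counts, and log2 CPM used a prior count of 2. Slopes on Cd8a came from edgeR with day as a factor, and correlations used permutation tests. The fits were also run on simulated data, with the outcome not given here. Alternatives were DESeq2 1.42.0 with and without ashr 2.2.63, limma 3.58.1 voom, other scaling, covariates, filters, batches and left-out mice.

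The text names the 38 members, Cd8a, D-type cyclins and CDK inhibitors, up to 3 called genes with the smallest FDR per pathway list, day and direction, the marker lists described, and the 8 genes most like each set, besides E2f7, E2f8, Cdkn2c, Nuf2 and other genes whose further days are given. Members and lists were chosen with earlier results of these data known. Promoters came from RefSeq (GRCm38.p6). The genome build of the counts is that of GENCODE M29, so no coordinates were joined to it.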

Additional observations from a re-analysis of the deposited data

Results flagged for a closer look

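In 12 of 287 sets of 4 mice tested, 1 mouse lay so far from the other three that its gap exceeded Dixon's critical value of 0.829 of the set's range. Chance gives about 1 such set in 20. Mouse D787, rAAV-OVA at 5 d, was the lowest of its group in 5 of them, with gap ratios of 0.88 for Cdt1, 0.848 for Top2a, 0.979 for Bub1, 0.891 for Cenpe and 0.831 for the S phase mean of log2 CPM. The rAAV-control mouse D723 at 5 d had ratios of 0.829 for Cdc45, as the highest, and 0.847 for Cdk1, as the lowest, and D745 of the same group had 0.878 for Cenpe, as the lowest. The rAAV-control mouse D851 at 28 d was the highest for Birc5 (0.874) and Ube2c (0.838). At 2 d the rAAV-OVA mouse D684 was the lowest for Rrm1 (0.866) and BEC-B541 the highest for Aurkb (0.886).

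The response to rAAV-OVA differed between 2 d and 5 d in 38 of the 38 members by the interaction term in edgeR. Each was higher at 5 d, where 9.98% of all genes were called higher. The comparison was added after the values were seen. The responses at 2 d, none of which passed, were below 0 and feed into the difference.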

How the results depend on the processing

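No paired analysis was possible because the replicate numbers follow the order of the samples and tie no mice together. The counts of members called stayed within 1.5 times their value under all alternatives run, except the following. With only genes of at least 15 counts in every mouse, 24 members could be tested. Then 10 mitosis members were higher at each of 5, 8 and 28 d, 24 members differed between 2 and 5 d, 12 were higher in rAAV-control mice at 2 d than at 28 d (2 in S phase and 9 in mitosis), and 24 rose with Cd8a. With only the mice of 8 d, 0 S phase and 0 mitosis members were called. With batch 2 alone, 0 S phase and 0 mitosis members were called at 28 d, where 402 of 15648 genes were called in either direction. Between rAAV-control mice at 2 and 28 d, batch 2 alone called 0 members and 0 of all genes. Those fits held fewer mice. Between rAAV-control mice at 2 and 28 d, the 7 S phase members fell to 1 with limma voom, 3 with the batch label, 4 with the batch label and surrogate variables, and 3 in batch 1 alone, and the cause was not tested. Leaving out 1 mouse at a time gave 13 to 15 S phase members at 5 d and at 8 d, 14 to 15 at 28 d, 22 mitosis members at each of these times, 35 to 38 members differing between 2 and 5 d, and 22 to 31 between rAAV-control mice at 2 and 28 d, with 1 to 8 in S phase and 19 to 22 in mitosis. All 38 members rose with Cd8a each time. No direction of a called value turned. For Mki67, Top2a, Mcm5, Pcna and Foxm1, whose log2FC at 2, 5, 8 and 28 d were followed under the alternatives, 215 values kept their side of the limits, 13 passed them anew and 12 no longer passed. Pcna was called in 6 of 11 alternatives at 5 d and Mcm6 in 9 of 11. Low counts limit Tk1, Bub1 and Aurkb in rAAV-control mice, and the 3 rAAV-control mice limit 8 d.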
